A study of Mus musculus with 22 samples.

Results

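The Slit ligands Slit1, Slit2 and Slit3 and the Robo receptors Robo1, Robo2, Robo3 and Robo4 were followed through RNA sequencing of sorted embryonic mouse cells. The 7 genes were taken by symbol from 55376 rows of each count file, and all 7 passed the filter on low counts in every comparison. Cells came from the spinal cord of E12.5 embryos. In 4 groups the cord was dissected with its meninges: endothelial cells, the lining of the vessels, sorted by a Cherry reporter of Kdr, and motor neurons sorted by a GFP reporter of ISL1, each from wild-type and from Plxnd1 knockout embryos. In 2 further groups the wild-type Kdr-Cherry+ endothelial cells came from the cord tissue itself (5 libraries, ventral cord in batches 1 to 3 and whole cord in batches 4 and 5) or from the meninges (5 libraries). Plxnd1 encodes a receptor for class 3 semaphorins, and the sources used here do not say which cells or exons the deletion covers. Embryos were pooled by genotype before sorting, and a p-value here speaks only of variation from one pooled library to the next.

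Of 22 libraries, 21 were used. The file labelled wild-type endothelial cells, batch 2, was the same as that of knockout batch 1 in all 55376 rows and was left out, which leaves wild-type endothelial cells with n = 2 (batches 1 and 3) and the other 3 groups of the knockout series with n = 3. Totals ran from 20680902 to 27035395 counts in the knockout series and from 15685784 to 21493255 in the regional series. The 2 series were counted with different strand settings, and levels were not compared between them. Plxnd1 checked the genotypes: wild-type endothelial libraries held 213 and 175 CPM (counts scaled to library size with TMM factors), those lacking the gene 28.9, 15.4 and 18.8 CPM, and it fell by 3.0 ± 0.15 on the log2 scale (SE; adjusted p = 0.000171).

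The sorts were checked against 8 markers for each cell type. All 8 endothelial markers were higher in wild-type endothelial cells than in motor neurons, with sums of 455 to 1083 CPM in the endothelial libraries of the knockout series and 9.44 to 29.5 CPM in the motor neuron libraries. The endothelial libraries also held RNA of other cells: 8 mesenchymal markers summed to 14250 to 17100 CPM there, 14430 to 20580 CPM in meningeal and 1292 to 2564 CPM in spinal endothelial libraries. All 8 motor neuron markers were lower in wild-type endothelial cells than in motor neurons. In wild-type motor neuron libraries they summed to 536 to 1311 CPM, and 8 interneuron markers to 1152 to 1511 CPM. The first list held Isl1 (198 ± 74.5 CPM, SD, n = 3, wild type), Mnx1 (83.9 ± 45.9 CPM) and Chat (35.4 ± 16.5 CPM). The second held the inhibitory interneuron genes Pax2 (454 ± 103 CPM), Gad2 (368 ± 23.8 CPM) and Lhx5 (365 ± 52.2 CPM). In sorted bulk RNA a smaller share of cells of a type and less RNA per cell cannot be told apart, and this holds for each level below.

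Slit proteins are large secreted glycoproteins that bind Robo receptors and usually repel growing axons, best known for keeping commissural axons from crossing the floor plate again and for shaping motor axon paths. Robo1 and Robo2 carry the signal in neurons, Robo3 is a divergent receptor that commissural axons need in order to cross, and Robo4 is the family member of the endothelium, where it is known for stabilising vessels. Introns of Slit2 and Slit3 hold the genes of a microRNA, miR-218, that is enriched in motor neurons and is known to act on Robo1 and Robo2.

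In GRCm38 the genes lie on 5 chromosomes: Slit1 at chr19:41600257-41743665 (minus strand), Slit2 at chr5:47983138-48307733 (plus), Slit3 at chr11:35121224-35708507 (plus), Robo1 at chr16:72663149-73046095 (plus), Robo2 at chr16:73891839-74411292 (minus), Robo3 at chr9:37416045-37433246 (minus) and Robo4 at chr9:37401897-37415115 (plus). These spans, and the exon lengths used below, are those of the annotation used for counting. RefSeq places starts of Robo2 upstream of its span, the farthest within chr16:75447244-75447543. None of the 7 genes shares exon bases with another annotated gene. Robo4 and Robo3 run towards each other and their ends are 929 bp apart. Their start regions, from 250 bases before to 50 after the RefSeq start (GRCm38.p6), are shown because these neighbours differed in opposite directions between endothelial cells and motor neurons, while both were higher in spinal than in meningeal endothelial cells. Capitals mark the letters GGAA, the core bound by ETS factors, on either strand, for Robo4 at chr9:37401722-37402021 (plus strand) and Robo3 at chr9:37433126-37433425 (minus strand):
Robo4: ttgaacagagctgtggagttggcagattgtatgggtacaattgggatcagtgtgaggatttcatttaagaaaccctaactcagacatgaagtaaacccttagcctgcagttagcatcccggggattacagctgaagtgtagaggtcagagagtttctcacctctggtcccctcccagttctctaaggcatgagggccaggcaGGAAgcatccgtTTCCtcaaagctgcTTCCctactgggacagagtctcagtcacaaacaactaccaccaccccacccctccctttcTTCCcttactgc
Robo3: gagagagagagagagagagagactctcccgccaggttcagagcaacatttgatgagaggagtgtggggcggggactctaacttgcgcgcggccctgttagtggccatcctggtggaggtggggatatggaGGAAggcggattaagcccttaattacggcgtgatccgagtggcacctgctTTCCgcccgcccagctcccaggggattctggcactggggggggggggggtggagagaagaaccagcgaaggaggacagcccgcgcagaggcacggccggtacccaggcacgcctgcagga
The Robo4 window held 4 such matches and 2 CpG at 50.3% GC, and the Robo3 window held 2 matches and 17 CpG at 63.3% GC. Of 32851 start regions of the same length, 96.0% held at least 1 GGAA, the median was 3 and 46.3% held 4 or more, so the count in Robo4 is a common one. The GC box GGGCGG was found 3 times in Robo3, not in Robo4, and in 35.7% of all start regions. The homeodomain core TAATTA was found once in Robo3, not in Robo4, and in 5.3% of all. RefSeq start regions were matched for 6 of the 7 genes, all but Slit1.

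The mature miR-218-5p of the 2 Slit host genes is identical, and it is shown with the seed (bases 2 to 8) in capitals above the seed matches in the 3′ UTRs of the receptors (capitals, GENCODE M21 annotation of GRCm38). The hairpins' copies of the mature sequence lie at chr5:48223966-48223986 (plus strand, within Slit2) and chr11:35616840-35616860 (plus strand, within Slit3):
miR-218-5p: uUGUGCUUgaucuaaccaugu
Robo1: ttttttggttttaaAAGCACAa
Robo2, site 1: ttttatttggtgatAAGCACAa
Robo2, site 2: gtcacggcagacccAAGCACAg
Robo3: cttgtgactcactgAAGCACAc
The sites lie at chr16:73045334-73045355 (plus strand) for Robo1, chr16:73895358-73895379 and chr16:73893032-73893053 (minus strand) for Robo2 and chr9:37416244-37416265 (minus strand) for Robo3. The heptamer AAGCACA was in 13.8% of 21020 annotated 3′ UTRs. It was in 37.3% of UTRs as long as that of Robo2, in 18.1% of those like Robo1 and in 2.8% of those like Robo3, whose UTR has 343 bases. Slit2 held 2 matches, and Slit1, Slit3 and Robo4 held none. A match is a stretch of letters and not a measured site.

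Across endothelial cells and motor neurons, the ligands were all higher in motor neurons, Robo2 and Robo3 likewise, Robo4 was higher in endothelial cells, and Robo1 did not pass the test. In wild type 5 of 7 genes were lower and 1 higher in endothelial cells at an adjusted p of 0.05 (edgeR), where 66.8% of 19266 genes tested were called (34.7% higher, 32.2% lower). In knockout cells the count was again 5 lower and 1 higher, against 70.9% of all genes (36.3% higher, 34.5% lower). With so many of all genes called, these counts describe the members and do not set them apart. The plot of levels in the knockout series shows each library.

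**Figure D1:**
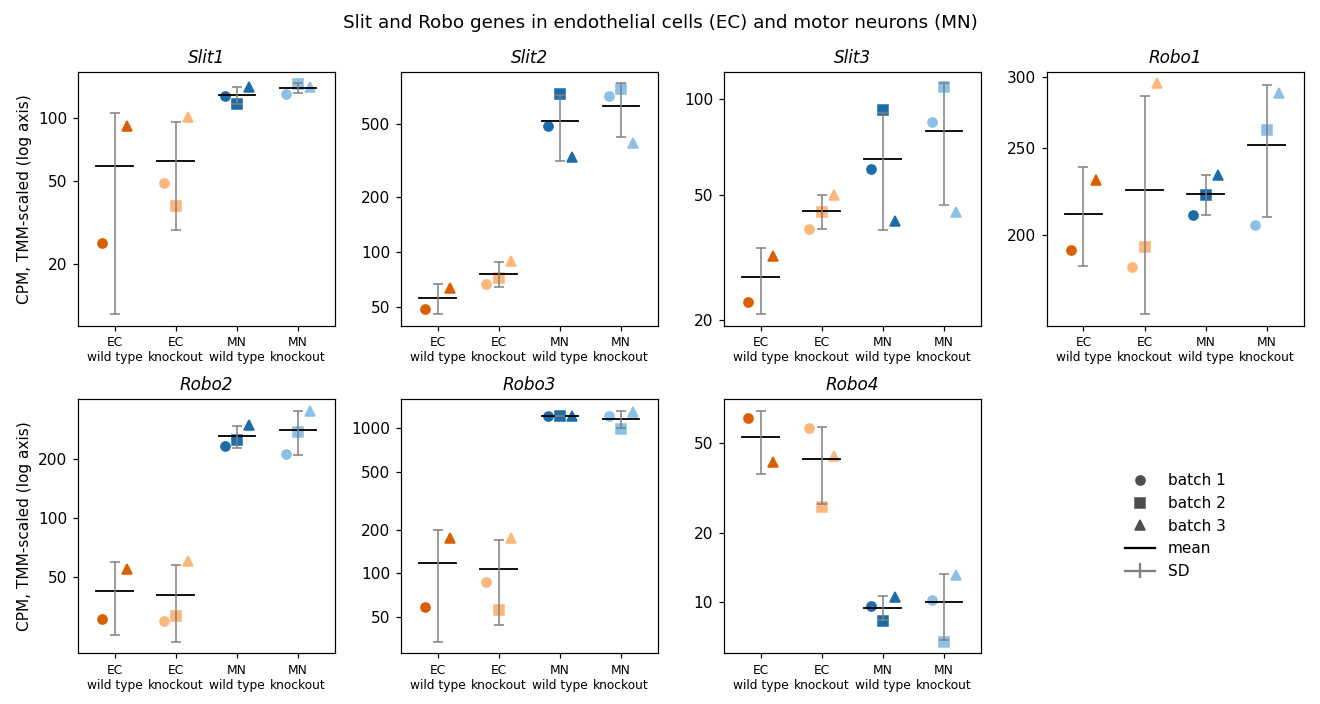
Levels of the 7 genes in CPM (TMM-scaled, log axes that differ between panels) in endothelial cells (EC) and motor neurons (MN) of wild-type and Plxnd1 knockout embryos. Each point is a library with its shape giving the batch, black lines are means and grey bars SD (n = 2 for wild-type EC, n = 3 otherwise). Robo3 exceeds 980 CPM in each motor neuron library, Robo4 is higher in each endothelial library, and the Robo1 groups overlap.

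Slit2 had the widest gap of the ligands. It stood at 48.6 and 63.4 CPM in wild-type endothelial cells and at 488, 734 and 329 CPM in wild-type motor neurons of batches 1 to 3, and the groups did not overlap. Its difference of endothelial cells from motor neurons was -3.0 ± 0.37 (log2, SE; adjusted p = 0.000102). In the knockout, endothelial libraries held 66.9, 71.9 and 89.7 CPM and motor neuron libraries 711, 781 and 396 CPM, a difference of -2.99 ± 0.31 (adjusted p = 2.6e-05). Batch 3 was the lowest motor neuron library for Slit2 in both genotypes. In the same 2 libraries the 8 motor neuron markers also had their lowest sums, 536 (wild type) and 521 CPM (knockout), against up to 1591 CPM in the other motor neuron libraries, and the part of this in the Slit2 level was not tested.

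Slit1, a ligand mainly of the nervous system, was at 25.2 and 91.7 CPM in wild-type endothelial cells and at 127, 117 and 141 CPM in motor neurons. Motor neuron libraries were close to each other and endothelial ones were spread widely. The difference was -1.44 ± 0.40 (log2; adjusted p = 0.0115) in wild type and -1.29 ± 0.34 (adjusted p = 0.0077) in the knockout, where endothelial cells held 48.9, 37.7 and 100 CPM and motor neurons 130, 145 and 141 CPM. The wild-type call was lost without endothelial batch 1 (-0.82, adjusted p = 0.111), without batch in the model (-1.13, adjusted p = 0.0654) and with the 2 groups alone (-1.46, adjusted p = 0.0623), and it grew without endothelial batch 3 (-2.22). Over all alternatives its adjusted p ran from 0.000319 to 0.111. The 3 endothelial libraries with the most Slit1 and Robo3 had the highest sums of interneuron markers (22.3 to 90.6 CPM over the 5 libraries), and whether neural RNA in the endothelial sort set these levels was not tested.

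Slit3 differed least of the ligands and its call was the least stable. It was at 22.8 and 32.0 CPM in wild-type endothelial cells and 60.1, 92.8 and 41.3 CPM in motor neurons, a difference of -0.98 ± 0.35 (adjusted p = 0.0349). In the knockout it was at 39.0, 44.0 and 49.9 CPM in endothelial cells and 85.0, 109 and 44.0 CPM in motor neurons, with overlap between the groups and a difference of -0.76 ± 0.30 (adjusted p = 0.045). The wild-type call ended with library totals alone (-0.88, adjusted p = 0.0522), with the 2 groups alone (-0.88, adjusted p = 0.0618), and without wild-type endothelial batch 1 (-0.58, adjusted p = 0.296), motor neuron batch 1 (-0.90, adjusted p = 0.1), motor neuron batch 2 (-0.87, adjusted p = 0.0746) or knockout endothelial batch 1 (-0.98, adjusted p = 0.0512). The knockout call ended with library totals alone (-0.65, adjusted p = 0.0763), with a filter at 5 CPM (-0.74, adjusted p = 0.0557) and with the 2 groups alone (-0.75, adjusted p = 0.079). It also ended without knockout endothelial batch 1 (-0.69, adjusted p = 0.136) or 2 (-0.48, adjusted p = 0.196), knockout motor neuron batch 1 (-0.54, adjusted p = 0.183) or 2 (-0.66, adjusted p = 0.141), or wild-type motor neuron batch 1 (-0.74, adjusted p = 0.0678). Its lowest adjusted p over the alternatives was 0.00805 in wild type and 0.00792 in the knockout.

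The hairpin genes inside Slit2 and Slit3 were counted as rows of their own. Their counts come from libraries of polyadenylated RNA and do not measure the mature microRNA. Mir218-2, in Slit3, had 21 to 42 counts in each wild-type motor neuron library (104 in all) and 16 to 61 in the knockout (136 in all), against 2 counts over the 5 endothelial libraries of that series. Mir218-1, in Slit2, had 7 and 27 counts over the wild-type and knockout motor neuron libraries and 2 over the endothelial ones. Mir218-2 thus had nearly all of its counts in motor neurons, where its host gene Slit3 was higher with the unstable call given above. The wild-type counts of Mir218-1, 1 to 4 per motor neuron library and up to 2 in an endothelial one, are too few to compare. Of the 3 receptor RNAs with seed matches, shown above, Robo2 and Robo3 were higher in motor neurons while Robo1 did not pass the test.

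Of the receptors, Robo3 showed the largest difference. It was at 58.4 and 176 CPM in wild-type endothelial cells and at 1212, 1217 and 1206 CPM in wild-type motor neurons; the motor neuron libraries lay close together. The difference was -3.72 ± 0.44 (log2; adjusted p = 8.45e-05), and -3.58 ± 0.36 (adjusted p = 2.43e-05) in the knockout, with 87.2, 55.8 and 177 CPM in endothelial cells and 1202, 983 and 1292 CPM in motor neurons. Robo3 is known from commissural neurons and not as a motor neuron gene. The 8 interneuron markers summed to 938 to 1511 CPM in motor neuron and 22.3 to 90.6 CPM in endothelial libraries, and all 8 were lower in endothelial cells in wild type. Set against that sum, Robo3 was 79.8 to 106% in wild-type and 91.5 to 109% in knockout motor neurons, and 170 to 194% and 208 to 250% in the endothelial libraries (a ratio chosen after the data were seen). The inhibitory genes Pax2, Gad2 and Lhx5 made up most of the sum in wild-type motor neurons, so the ratio does not single out commissural neurons.

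Robo2, a main neuronal Slit receptor, was at 30.4 and 54.8 CPM in wild-type endothelial cells and at 235, 250 and 301 CPM in motor neurons. In the knockout it was at 29.7, 31.6 and 60.1 CPM in endothelial cells and at 214, 276 and 355 CPM in motor neurons. The groups did not overlap in either genotype, and the differences were -2.74 ± 0.17 (adjusted p = 1.73e-06) and -2.84 ± 0.14 (adjusted p = 4.05e-07).

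Robo1, the other main Slit receptor, was at 192 and 230 CPM in wild-type endothelial cells and 211, 222 and 234 CPM in motor neurons. The knockout libraries held 184, 194 and 295 CPM in endothelial cells and 205, 262 and 288 CPM in motor neurons. The groups overlapped in both genotypes, and the differences of -0.10 ± 0.14 (adjusted p = 0.555) and -0.18 ± 0.12 (adjusted p = 0.202) did not pass. Without knockout endothelial batch 3 the knockout difference passed (-0.33, adjusted p = 0.0177; 0.0177 to 0.629 over the alternatives).

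Robo4 alone was higher in endothelial cells. Wild-type endothelial libraries held 64.5 and 41.3 CPM and motor neuron libraries 9.63, 8.22 and 10.48 CPM, a difference of 2.24 ± 0.24 (adjusted p = 4.54e-05). Knockout endothelial libraries held 57.9, 26.2 and 43.9 CPM and motor neuron libraries 10.2, 6.70 and 13.2 CPM, a difference of 2.06 ± 0.21 (adjusted p = 2.88e-05). Robo4 was 5.87 to 5.95% of the endothelial marker sum in wild-type and 5.76 to 6.82% in knockout endothelial libraries, so the lower level of knockout batch 2 went with a lower marker sum, 455 CPM. In motor neuron libraries it was 38.2 to 70.9% of that sum. The knockout series was counted without regard to strand and Robo3, the neighbour that ends 929 bp away on the other strand, was high in these libraries; the part of Robo3 reads in the Robo4 counts of motor neurons was not tested.

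Set per kilobase of exon, the order of the levels differed between the cell types. In wild-type motor neurons Robo3 led at 237 CPM per kb (means), followed by Slit2 (51.6), Robo1 and Robo2 (29.4 each), Slit1 (21.9), Slit3 (12.4) and Robo4 (1.85). In wild-type endothelial cells of the same series Robo1 (28.0) and Robo3 (22.9) came first, then Robo4 (10.4) and Slit1 (9.996), and Slit2 (5.59), Slit3 (5.24) and Robo2 (4.78) were lowest. Over the 3 motor neuron libraries the range of Robo1 lay within that of Robo2, the lowest Slit2 value lay under the highest of Robo2 but above all of Robo1, and Robo3, Slit1, Slit3 and Robo4 were each apart from their neighbours. In endothelial cells each gene overlapped with the next in the order. The knockout groups had Robo3 (226.5) and Slit2 (62.8) first in motor neurons and Robo1 (29.7) and Robo3 (20.8) first in endothelial cells.

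The knockout comparison asked whether the loss of Plxnd1 changed these genes in either cell type. The fit of 11 libraries held a single batch term shared by both cell types, so pairs were not fitted within each cell type alone. None of the 7 passed in endothelial cells or motor neurons, where edgeR called 2 genes in all (0.0104% of 19266, both lower, Plxnd1 among them) and 3 genes (0.0156%). At an unadjusted p under 0.05 there were 644 and 538 genes, and DESeq2 called 21 and 4. The interaction of knockout and cell type called 0% of genes in edgeR (495 at the unadjusted p, 4 in DESeq2) and none of the 7 genes, with adjusted p = 1 for each.

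The ligands were nevertheless higher in the knockout endothelial libraries than in their wild-type partners in each pair. Slit3 was higher by 0.77 (log2) in batch 1 and 0.64 in batch 3, and Slit2 by 0.46 and 0.50, and for these 2 genes the lowest knockout library exceeded the highest wild-type one. The share of all genes with such a gap was not counted, so the gap does not set these 2 genes apart. Slit1 was higher by 0.95 and 0.13 in the same pairs, with overlap between the groups. In the fit of all 11 libraries the changes were 0.52 ± 0.34 for Slit3, 0.32 ± 0.33 for Slit2 and 0.28 ± 0.38 for Slit1 (adjusted p = 1 each). The fitted values of Slit3 and Slit2 lay below those of both of their pairs.

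Both the estimates and their spread depended on which libraries were in the fit. Fitted on the 5 endothelial libraries alone with batch as a block, which leaves 1 residual degree of freedom (and none without any of the paired libraries) and in which knockout batch 2 has no partner, Slit3 was higher by 0.71 ± 0.11 (adjusted p = 0.000706; 0.000706 to 1 over the alternatives) and Slit2 by 0.48 ± 0.10 (adjusted p = 0.0081; 0.0081 to 1). Slit1 did not pass there (0.52 ± 0.13, adjusted p = 0.0527). That fit called 0.989% of 18209 genes, 0.763% of them higher, and 2 of the 7 members, both higher. On the same libraries without the block no gene was called (0% of genes; 431 at the unadjusted p).

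Several marker sums of other cells were higher in the knockout of the same pairs, while others were mixed or lower. From wild type to knockout in batches 1 and 3, the Schwann and neural crest markers went from 65.2 to 104 and from 135 to 167 CPM. The floor plate markers, of a known source of Slit proteins, went from 143 to 187 and from 279 to 300.5 CPM, and the neural progenitor markers from 338 to 398 and from 464 to 486 CPM. Pericyte markers were also higher in both pairs (1343 to 1499 and 916 to 1056 CPM), and mesenchymal markers were level at 14620 CPM in batch 1 and higher in batch 3 (14790 to 17100 CPM). The endothelial sum was lower in both pairs, from 1083 to 848 and from 703 to 681 CPM. The erythroid sum (22150 to 13100 and 12050 to 9853 CPM) and the liver sum (1.42 to 1.11 and 0.649 to 0.189 CPM) were lower too. Motor neuron (57.4 to 79.5 and 100.4 to 67.4 CPM), interneuron (34.3 to 40.3 and 90.6 to 84.9 CPM) and macrophage sums (489 to 520 and 430.5 to 347 CPM) rose in batch 1 and fell in batch 3. The median change of the floor plate markers in the fit of 11 libraries was -0.09. None of these markers passed in the fit of 11 libraries, and their part in the ligand values was not tested.

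The changes of the receptors in the knockout endothelial cells, in the fit of 11 libraries, were 0.09 ± 0.14 for Robo1, -0.03 ± 0.15 for Robo2, 0.04 ± 0.37 for Robo3 and -0.13 ± 0.23 for Robo4. Each of the 4 receptors had overlapping groups, and for Robo1, Robo2 and Robo4 the pairs differed in sign. Robo3 was higher by 0.58 in batch 1 and level (0) in batch 3.

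In motor neurons the groups of all 7 genes overlapped. Slit2 (0.54, 0.09 and 0.27 in batches 1 to 3) and Slit3 (0.50, 0.24 and 0.09) were higher in the knockout library of each pair, with fitted changes of 0.30 ± 0.28 and 0.30 ± 0.29. Robo1 (0.17 ± 0.12), Slit1 (0.13 ± 0.33), Robo2 (0.07 ± 0.13) and Robo4 (0.06 ± 0.22) had small positive values and Robo3 a small negative one (-0.10 ± 0.32), with adjusted p = 1 each. Plxnd1 itself fell by 2.97 ± 0.18 in these cells (adjusted p = 0.000756), from 12.1, 5.14 and 7.80 CPM to 1.79, 0.646 and 0.771 CPM. The library of knockout batch 1 held liver markers at 516 CPM, against at most 1.98 CPM in the other libraries of that series.

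**Figure D2:**
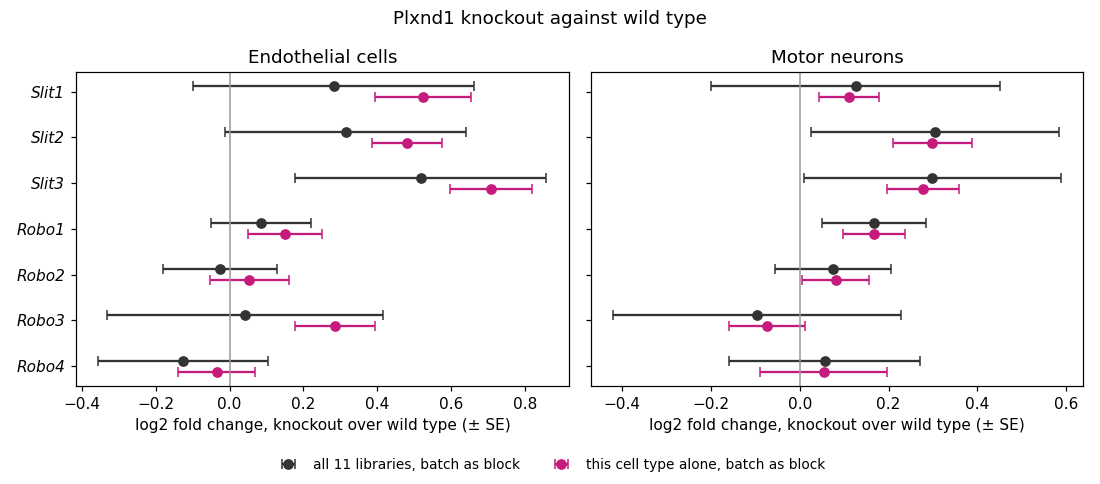
Change of each gene in Plxnd1 knockout over wild type (log2 fold change, bars are SE) in endothelial cells (left) and motor neurons (right). Black points come from the fit of all 11 libraries and pink points from the libraries of that cell type alone, both with batch as a block; the pink endothelial values of Slit2 (0.48) and Slit3 (0.71) are the 2 that passed.

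The regional comparison asked how endothelial cells within the cord differ from those of the meninges. Of the 7 genes, 5 were higher in spinal endothelial cells (Slit1, Slit2, Robo2, Robo3 and Robo4), none was lower, and Slit3 and Robo1 did not pass, where 47.8% of 16213 genes tested were called (24.8% higher, 23% lower). The median of the 7 log2 differences was 1.29, against 0.01 over all genes. For the 5 called genes the 2 groups did not overlap. The share of all genes without overlap was not counted, so this only describes the 5 genes. The libraries of the 2 regions also differed in RNA of other cells. All 5 pericyte markers were higher in spinal libraries (sums of 3175 to 8532 against 1003 to 1370 CPM). All 8 mesenchymal markers were lower there (1292 to 2564 against 14430 to 20580 CPM). The part of these cells in the differences of the 7 genes was not tested.

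**Figure D3:**
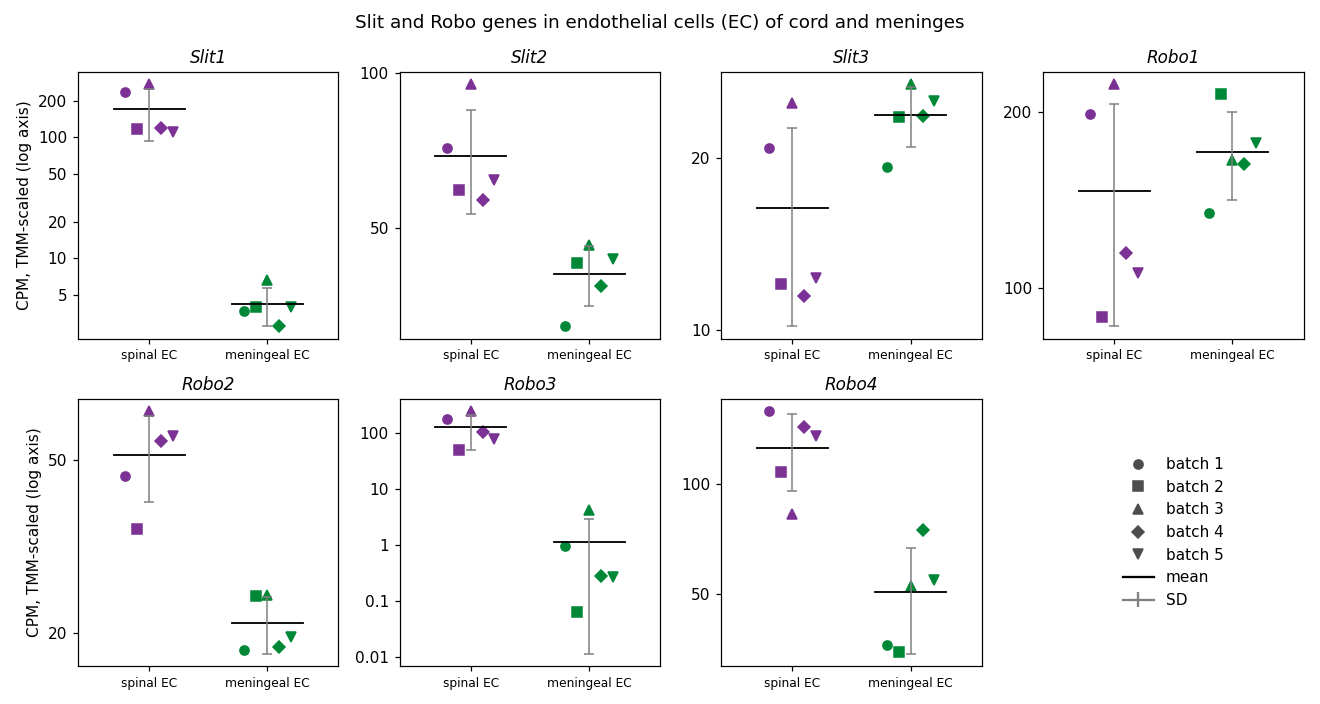
Levels of the 7 genes in CPM (TMM-scaled, log axes that differ between panels) in spinal and meningeal endothelial cells (EC), 5 libraries each. Shapes give the batch, black lines the mean and grey bars the SD, whose lower end for meningeal Robo3 is drawn just above 0 because the SD exceeds the mean. Slit1 and Robo3 are far lower in each meningeal library, while Slit3 and Robo1 overlap.

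Slit1 was at 236, 117, 275, 118 and 110 CPM in spinal batches 1 to 5 and at 3.65, 3.92, 6.61, 2.74 and 3.95 CPM in the meningeal ones. The difference was 5.36 ± 0.35 (log2; adjusted p = 2.71e-07). Robo3 was at 176, 48.5, 242, 102 and 76.4 CPM in spinal libraries and at 0.966, 0.0643, 4.15, 0.284 and 0.267 CPM in meningeal ones, which rest on 18, 1, 71, 6 and 5 counts. Its difference of 6.83 ± 0.76 (adjusted p = 1.27e-05) was the largest of the 7, and meningeal batch 3 held most of the Robo3 counts of its group (8.29 ± 0.70 without that library). Both genes are known mainly from neurons, and both were under 7 CPM in each meningeal library.

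Neural markers moved with them, the motor neuron ones less clearly. All 8 interneuron markers were higher in spinal libraries, with sums of 44.0 to 119 CPM against 0.193 to 1.58 CPM, and Barhl2 was at 0 in 4 of the 5 meningeal libraries. All 5 neural progenitor markers (sums of 537 to 745 against 283 to 381 CPM) and all 5 floor plate markers (154 to 461 against 94.8 to 124 CPM) were higher as well. Of 8 motor neuron markers 5 passed as higher, and their sums overlapped (57.1 to 98.3 against 34.5 to 84.9 CPM). Isl1 among them had a negative value that did not pass (-0.83, edgeR, adjusted p = 0.071). The part of neural RNA in the Robo3 and Slit1 differences was not tested.

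**Figure D4:**
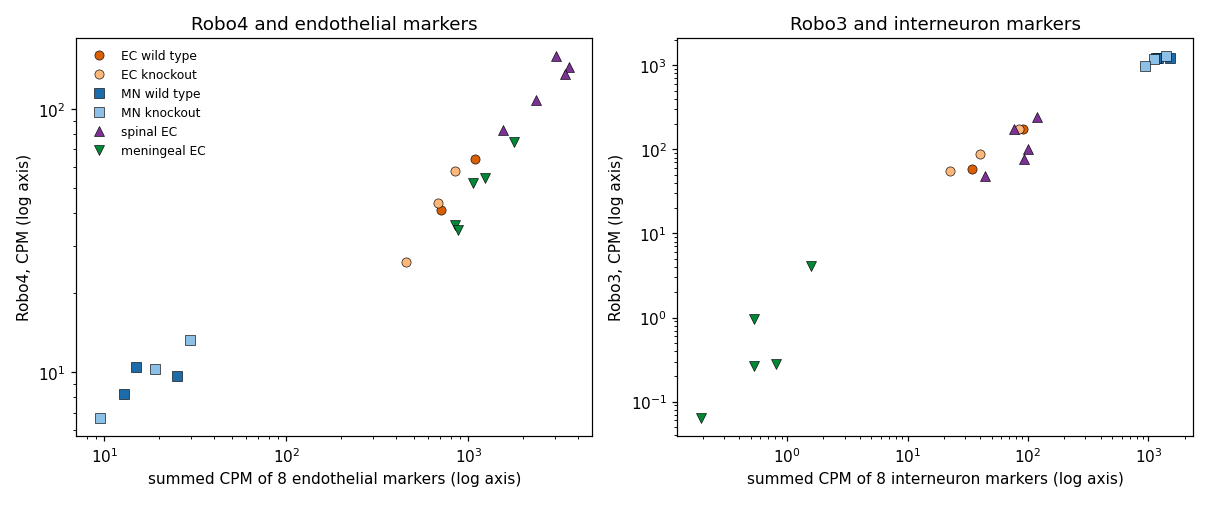
Robo4 against the sum of 8 endothelial markers (left) and Robo3 against the sum of 8 interneuron markers (right), in CPM on log axes, for all 21 libraries used; the 2 series were counted with different settings. Endothelial libraries hold Robo4 at 3.97 to 6.82% of the marker sum while motor neuron libraries lie above it, and meningeal libraries hold the lowest values of both Robo3 and interneuron markers.

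Robo4 was at 159, 108, 83.0, 144 and 135 CPM in spinal and 36.2, 34.6, 52.4, 74.6 and 54.3 CPM in meningeal libraries, a difference of 1.32 ± 0.23 (adjusted p = 0.000406). The endothelial markers differed in the same direction: 6 of 8 passed as higher in spinal libraries, with sums of 1543 to 3558 CPM against 848 to 1778 CPM. As a share of that sum Robo4 was 4.65 ± 0.65% in spinal and 4.36 ± 0.37% in meningeal libraries (SD, n = 5 each), a log2 difference of 0.08 (exact permutation test, two-sided p = 0.429, where 5 against 5 allows 0.00794 at the least; the ratio was chosen after the data were seen). Scaled to the sum of these 8 markers, then, no regional difference of Robo4 was detectable with these 10 libraries. The markers differed unequally between the regions. Mean Kdr was 745.8 CPM in spinal and 263.2 CPM in meningeal libraries, and mean Cdh5 374.9 and 267.5 CPM. The ratio thus depends on the markers in the sum, and other sets were not tested. Whether the Robo4 difference came from the share of endothelial RNA was not tested either.

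Robo2 was at 45.9, 34.7, 64.6, 55.1 and 56.6 CPM in spinal and 18.2, 24.4, 24.4, 18.6 and 19.5 CPM in meningeal libraries (1.29 ± 0.17, adjusted p = 4.02e-05). Slit2 was at 71.7, 59.2, 95.3, 56.6 and 62.1 CPM in spinal and 32.2, 42.8, 46.3, 38.6 and 43.6 CPM in meningeal libraries (0.76 ± 0.15, adjusted p = 0.00123). Both were higher in the spinal library of all 5 batches, by 0.51 to 1.56 (log2) for Robo2 and 0.47 to 1.15 for Slit2. Both calls were kept under all 18 alternatives. Like Slit1 and Robo3, both genes were also higher in motor neurons than in endothelial cells. The part of neural RNA in their regional differences was not tested.

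Slit3 and Robo1 divided the spinal libraries. Slit3 was at 20.8, 12.03, 25.0, 11.4 and 12.3 CPM in spinal and 19.3, 23.6, 26.9, 23.7 and 25.2 CPM in meningeal libraries, so that spinal batches 1 and 3 lay within the meningeal range and batches 2, 4 and 5 below it. Robo1 was at 199, 89.1, 224, 115 and 106 CPM in spinal and 134, 215, 166, 163 and 177 CPM in meningeal libraries, with the same 2 spinal libraries highest. The differences were -0.54 ± 0.22 (adjusted p = 0.0618) and -0.22 ± 0.24 (adjusted p = 0.473).

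Slit3 became a call, lower in spinal libraries, with batch as a block (-0.61, adjusted p = 0.0386), in DESeq2 (-0.55, adjusted p = 0.0434) and without spinal batch 1 (-0.66, adjusted p = 0.0422) or batch 3 (-0.76, adjusted p = 0.00706). In batches 4 and 5 alone, from whole cord, Slit3 differed by -1.05 (adjusted p = 1.15e-05; 1.15e-05 to 0.425 over the alternatives) and Robo1 by -0.64 (adjusted p = 2.43e-05; 2.43e-05 to 0.95). Of the marker sums, 3 were also highest in spinal batches 1 and 3, against batches 2, 4 and 5. They were floor plate (412 and 461 against 254, 154 and 163 CPM) and neural progenitor (745 and 723 against 564, 553 and 537 CPM). The last was Schwann and neural crest (38.7 and 37.3 against 18.2, 15.8 and 13.4 CPM). Erythroid, macrophage and liver sums were lowest in batches 1 and 3, and the part of any of these cells was not tested. Whether the regional difference itself depended on the dissection was asked by an interaction, in which 0.547% of 17901 genes were called and none of the 7. Slit3 had the largest positive value (0.80 ± 0.37, adjusted p = 0.259), which passed without spinal batch 2 (1.04, adjusted p = 0.0334), and Robo3 the largest negative one (-1.80 ± 1.67, adjusted p = 0.585), which passed with no filter on low counts (-1.77, adjusted p = 0.000675).

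Per kilobase of exon, spinal endothelial cells held Slit1 (29.3 CPM per kb), Robo3 (25.2), Robo4 (24.6) and Robo1 (19.4) at like levels, above Slit2 (6.88), Robo2 (5.76) and Slit3 (3.12). In meningeal endothelial cells Robo1 led at 22.6 CPM per kb, followed by Robo4 (9.87), Slit3 (4.54), Slit2 (4.06) and Robo2 (2.36), with Slit1 (0.714) and Robo3 (0.224) last. Robo1 lay above Robo4 and Robo4 above Slit3 in all 5 meningeal libraries, Slit2 and Slit3 overlapped, as did Slit1 and Robo3, and in spinal libraries the 4 highest genes overlapped with each other.

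A list of 32 other genes of the pathway, in 3 groups, was counted in the same fits. Between wild-type endothelial cells and motor neurons 14 were higher, 16 lower and 2 did not pass, against 66.8% of all genes called. Of 9 co-receptors and binding partners, 4 were higher and 5 lower. Those with the largest differences were the netrin receptor Unc5b (2.40 ± 0.24) and the chemokine receptor Cxcr4 (2.15 ± 0.26), higher in endothelial cells, and the netrin receptor Dcc (-2.79 ± 0.41) and the Robo3 ligand Nell2 (-2.70 ± 0.45) with its relative Nell1 (-2.41 ± 0.39), lower. Dag1, the dystroglycan that binds Slits, was higher by 1.43 ± 0.09. Of 17 cytoplasmic effectors 8 were higher and 7 lower, among them the kinase Pak1 (-2.43 ± 0.18). Of 6 trafficking genes 2 were higher and 4 lower, and Prrg4, which encodes a relative of the fly protein that sorts Robo, had the largest value of the list (4.19 ± 0.47). In the knockout the counts were again 14 higher, 16 lower and 2 not passed.

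Between the regions 16 of the 32 genes were higher in spinal endothelial cells, 3 were lower and 13 did not pass, against 47.8% of all genes. Cxcr4 (3.83 ± 0.18), Dcc (3.48 ± 0.21), Nell2 (3.47 ± 0.27) and Unc5b (2.57 ± 0.20) were the highest. Of these, Dcc and Nell2 were also higher in motor neurons than in endothelial cells, and the part of neural RNA in them was not tested. The 3 lower genes were Prrg4 (-1.90 ± 0.34), the Robo1-binding protein gene Flrt3 (-1.85 ± 0.25) and the GTPase gene Cdc42 (-0.43 ± 0.15). In the fit of 11 libraries no gene of the list passed in the knockout comparisons or their interaction, and none passed in the dissection test. In the endothelial libraries alone with batch as a block, the fit that called Slit2 and Slit3, Dcc was the only gene of the list that passed, higher in the knockout by 0.50 ± 0.11 (edgeR, adjusted p = 0.0151, against 0.999 without the block and 1 in the fit of 11 libraries).

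For each gene the 3 genes most like it were found by Pearson r of log2 CPM. The r describes these libraries, which fall into cell types or regions, so a high value mostly repeats a shared difference between the groups. Over the 11 libraries of the knockout series Robo4 was most like Nos3 (0.992), the endothelial nitric oxide synthase gene, Thsd1 (0.99) and Osmr (0.99). Over the 10 regional libraries it was most like Ushbp1 (0.995), Sox17 (0.994), a transcription factor gene of arterial endothelium, and Sema3g (0.991). Robo3 was most like Brsk2, a neuronal kinase gene, in both series (0.999 and 0.997), Slit1 was most like Dll3 (0.996) in the knockout series and had Sox3 (0.998), a neural progenitor gene, among its 3 in the regional one, and Robo2 was most like Pi4ka (0.999) and Dpf1 (0.991). Slit2 was most like Lyrm9 (0.997) and Hoxb4 (0.985), and Slit3 like Chsy3 (0.981) and Fgfr2 (0.984). Robo1 had the lowest of these values, 0.953 with Snx19 and 0.966 with Skida1.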

How the data were processed

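Polyadenylated RNA of sorted cells was sequenced in 22 libraries, 21 of which were used. The deposited values are raw counts per gene, which the authors made with featureCounts 1.6.4 after Trimmomatic 0.39 and STAR 2.5.3a on GRCm38 (mm10), per the file headers and the submitters' processing notes. Per the file headers the knockout series was counted without strand as single reads and the regional series as reverse-stranded pairs.

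Counts were scaled by TMM, filtered by filterByExpr (minimum count 10) and tested by the quasi-likelihood F-test of edgeR 4.0.16 under R 4.3.3, with p-values adjusted over all genes by Benjamini-Hochberg and a threshold of 0.05. One fit held the 11 libraries of the knockout series with batch as a block (5 residual degrees of freedom), another the 10 regional libraries without a block (8), and the last the interaction of region and dissection (6). CPM are counts over TMM-scaled totals within a series, and per-batch log2 ratios added 0.1 CPM. Likeness between genes used log2 CPM after adding 0.5. The fits were also run on simulated counts with 200 changed genes. No batch effect was simulated, so that run does not test the use of batch as a block.

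The batch numbers come from the labels. Deviations from group means of same-numbered libraries correlated at 0.494 and 0.579 between the genotypes in endothelial cells and at 0.313, 0.429 and 0.4 in motor neurons. Between wild-type cell types they correlated at 0.292 and 0.28, between knockout ones at 0.25, 0.114 and 0.152, and between regions at -0.321, 0.002, 0.326, 0.214 and 0.022.

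The members, the pathway and marker lists and the tests were chosen with earlier results of these data known. All 7 members are named in each comparison, with Plxnd1 and the sort reporters as checks, at most 4 pathway genes per direction that passed, and the 3 genes most like each member. Other marker genes and the ratios to marker sums were chosen after their values were seen. The value of 1 interneuron marker is not reported here. Alternatives were DESeq2 1.42.0, other scaling, no filter or one at 5 CPM, other blocks or subsets of libraries, and leaving out each library.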

Additional observations from a re-analysis of the deposited data

Results flagged for a closer look

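Robo3 in meningeal endothelial batch 3 stood apart from the other 4 libraries of its group, at 4.15 CPM (71 counts) against 0.966 CPM in the next highest; the gap was 0.779 of the group's range, above the critical value of 0.71. The same library had the highest sum of interneuron markers in that group, 1.58 CPM. It was the only one flagged of 14 groups of libraries examined, where chance flags about 1 in 20.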

How the results depend on the processing

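Direction and side of the threshold were kept under all alternatives for Slit2, Robo2, Robo3 and Robo4 between the cell types, and for Slit1, Slit2 and Robo2 between the regions; Robo4 lost its regional call only as a share of the endothelial marker sum (0.08). Robo3 kept its call under the alternatives other than as a share of the interneuron sum, which rests on too few meningeal counts to be read. The cause of a change was not tested. Of the members lower in wild-type endothelial cells than in motor neurons, 3 were called with the 2 groups alone and batch as a replicate block, and 3 to 5 when single libraries were left out (3 without wild-type endothelial batch 1). Members higher in knockout endothelial cells numbered 2 with the replicate block within the cell type. Members lower in spinal endothelial cells numbered 1 in DESeq2, 1 with the replicate block, 2 in batches 4 and 5 only, and 0 to 1 with a library left out. In the dissection test 1 was lower with no filter, and 0 to 1 higher with a library left out. Leaving the block out of the fit of 11 libraries changed no call of a member other than that of Slit1 given in the report, and Plxnd1 then missed the threshold (endothelial -3.21, adjusted p = 0.0583, with 8.33e-52 to 0.161 over the alternatives; motor neuron -2.98, adjusted p = 0.252, with 8.9e-32 to 0.8). Over all genes the endothelial knockout gave 2 calls, 21 in DESeq2, 180 with the replicate block within the cell type and 0 there without it. The interaction gave 0 and 4 in DESeq2, the motor neuron knockout 3 and, within the cell type, 6 with the block and 2 without it, and the dissection test 98 and 1321 in DESeq2.

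Values that did not pass changed sign in several settings. Without the replicate block Robo3 was -0.14 in the endothelial knockout (-0.13 within the cell type), and the interaction was -0.02 for Slit1 and -0.07 for Robo3. Within the cell type with the replicate block Robo2 was 0.05, and with no filter the Slit2 interaction was -0.01. With single libraries left out, Robo1 ran from -0.2 to 0.01 between wild-type cell types. The ranges were Slit1 -0.31 to 1.1, Slit2 -0.12 to 0.69, Robo1 -0.09 to 0.17, Robo2 -0.22 to 0.06, Robo3 -0.47 to 0.71 and Robo4 -0.43 to 0.22 in the endothelial knockout, Slit1 -0.1 to 0.4, Robo2 -0.06 to 0.18, Robo3 -0.39 to 0.17 and Robo4 -0.17 to 0.25 in the motor neuron knockout, and Slit1 -0.43 to 0.97, Slit2 -0.43 to 0.39, Slit3 -0.19 to 0.69, Robo1 -0.26 to 0.03, Robo2 -0.3 to 0.06, Robo3 -0.37 to 0.81 and Robo4 -0.48 to 0.17 in the interaction. Depth limits Robo3 in meningeal libraries, where 1 library held 1 count.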
